A study of Mus musculus with 6 samples.

Results

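The stretch of mouse chromosome 7 described here holds the neighbouring genes Dmwd and Dmpk and every other protein-coding gene that starts between positions 18600000 and 19500000 (build mm10, annotation GENCODE M21), 39 genes of the 54532 gene identifiers measured. The window was chosen by the values of Dmwd and Dmpk, which stood higher in one knockdown than in the other, and its remaining 37 genes were taken by position alone. All 39 were matched by gene identifier. Transcripts had been measured by RNA sequencing in 6 libraries of an immortalised mouse bone marrow-derived macrophage line. In 3 libraries the cells carried a short hairpin RNA (shRNA) against Pgam5, a phosphatase of mitochondria, and in 3 an shRNA against the gene of DRP1 (Dnm1l), the GTPase that divides mitochondria. Both groups had received interleukin-4 (IL-4) at 10 ng/ml for 24 h, so the libraries compare 2 knockdowns in treated cells, and no cells without a knockdown were analysed here. The labels do not say whether the numbers 1 to 3 within a group are separate cultures, separate hairpins or repeat preparations, so the spread behind each p-value is that of these libraries and may be technical.

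Dmwd and Dmpk lie head to tail on the plus strand, and their order is kept between mouse and human. DMPK is a serine/threonine kinase of muscle and other cells, and an expanded repeat in the human gene causes myotonic dystrophy. The name of DMWD records that place beside the kinase gene. It is a WD-repeat protein related to WDR20, a known partner of the deubiquitinases USP12 and USP46. The expanded repeat in human DMPK is also known to affect its neighbours, in particular SIX5, a homeobox transcription factor gene that follows DMPK.

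Dmwd (ENSMUSG00000030410) spans 19076227 to 19082776 and Dmpk (ENSMUSG00000030409) 19083849 to 19093821, with 1072 bases between them. The promoter windows of both genes are shown because the 2 transcripts stood higher together, and they come from RefSeq on GRCm38.p6, the same coordinates as mm10, from 250 bases before to 50 bases after the annotated start. Capitals mark a GC box (GGGCGG, on either strand) or a CCAAT box (CCAAT, on either strand), the motifs found among those searched. The window of Dmwd is chr7:19075950-19076249 and that of Dmpk chr7:19083608-19083907, both on the plus strand.
Dmwd: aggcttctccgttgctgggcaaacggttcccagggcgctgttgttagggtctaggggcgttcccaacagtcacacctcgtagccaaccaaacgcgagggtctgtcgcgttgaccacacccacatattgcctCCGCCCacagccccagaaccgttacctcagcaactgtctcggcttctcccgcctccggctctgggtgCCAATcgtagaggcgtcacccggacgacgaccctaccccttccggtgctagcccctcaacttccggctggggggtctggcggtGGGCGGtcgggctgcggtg
Dmpk: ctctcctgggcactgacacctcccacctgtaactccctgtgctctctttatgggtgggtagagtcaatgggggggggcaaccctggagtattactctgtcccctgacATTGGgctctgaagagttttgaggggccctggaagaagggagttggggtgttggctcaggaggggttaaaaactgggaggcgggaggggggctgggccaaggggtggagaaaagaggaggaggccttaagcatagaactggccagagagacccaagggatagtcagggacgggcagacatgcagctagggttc

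The window of Dmwd held 25 CG pairs and that of Dmpk 2, a ratio of observed to expected CG pairs of 0.80 and 0.09, where the median over all 32851 promoter windows was 0.38. Dmwd had 2 matches to the GC box and Dmpk none, and each had 1 to the CCAAT box. Over all promoter windows 35.7% held a GC box and 37.4% a CCAAT box. Neither window held ACGTG, the core of the hypoxia response element, which 19.6% of all windows held, nor CACGTG, an E-box that contains that core and was found in 7.15%. Neither held TGANTCA, an AP-1 motif (7.81% of windows), or TTC and GAA with 4 bases between them, the spacing of the STAT6 motif through which IL-4 signals (6.95% of windows). A window without a match says only that these letters are not in it. Of the 18 genes tested below, 16 had a promoter window, 17 windows in all. The GC box was in a window of 12 of these genes, the CCAAT box of 6 and ACGTG of 4. CACGTG was in a window of 2, the STAT6 spacing of 1 and the AP-1 motif of 0. The percentages above are per window over all promoters and not per tested gene, so nothing is read from these counts.

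Levels are FPKM, fragments scaled to the length of the transcript and the size of the library, and differences are shPGAM5 minus shDRP1 in log2(FPKM + 1), a scale on which differences of weakly expressed genes come out too small. A gene was tested when its mean over the 6 libraries was at least 1 FPKM, and called at an adjusted p under 0.05 from limma, a linear model fitted to all 10634 such genes. Depth was 16326409 to 18313291 reads in the shPGAM5 libraries and 16111281 to 21933548 in the shDRP1 libraries. Pgam5 stood at 4.6 to 5.21 FPKM in the shPGAM5 libraries and 17.1 to 17.3 in the shDRP1 libraries, and Dnm1l at 17.2 to 18.7 FPKM in the shPGAM5 libraries and 7.12 to 8.18 in the shDRP1 libraries. The third shPGAM5 library stood apart from the other two of its group, with a mean chi-square of recovered reads of 8.05 and 5.61 per gene, against 2.65 to 3.26 for the other pairs within groups. Of 8 macrophage markers 7 passed the expression filter and 4 of these (Csf1r, Cd68, Lyz2 and Fcgr1) were lower in the shPGAM5 libraries, where 25.4% of all tested genes were called, 13.8% higher and 11.7% lower. The other tested markers were not called, with shPGAM5 against shDRP1 means of 43.9 and 43.4 FPKM for Adgre1, 193 and 191 for Spi1, and 3.88 and 4.38 for Itgam. The list summed to 2140 to 2250 FPKM in the shPGAM5 libraries against 3110 to 3130 in the shDRP1 libraries. Lyz2 alone had means of 1270 and 1950 FPKM, and Mertk was at or near 0. In bulk RNA, fewer cells of a type and less RNA per cell cannot be told apart. Skeletal muscle markers, listed because Dmpk is best known from muscle, summed to 0.178 to 0.385 FPKM in the shPGAM5 libraries and 0.163 to 0.284 in the shDRP1 libraries, and 4 of the 7 (Myod1, Myog, Acta1 and Myh4) were at 0 in all 6. The 5 fibroblast, 3 B cell, 5 neutrophil and 4 epithelial markers lay below the filter, with sums of at most 0.188 FPKM in any library. The 3 mast cell markers summed to 0.072 to 0.445 FPKM in the shPGAM5 libraries and 0.467 to 0.559 in the shDRP1 libraries. Of 4 T cell markers Lck alone passed the filter, and the list summed to 7.11 to 7.42 FPKM in the shPGAM5 libraries and 6.7 to 7.01 in the shDRP1 libraries, with Cd3e and Cd3g at 0 in all 6. Any part of these marker levels in the window's values was not tested.

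Both genes of the pair were about 3-fold higher in the PGAM5 knockdown. Dmwd had 11.6, 9.73 and 11.4 FPKM in the shPGAM5 libraries, against 3.67, 3.80 and 4.10 FPKM in the shDRP1 libraries. Dmpk had 6.98, 6.29 and 6.23 FPKM in the shPGAM5 libraries, against 1.99, 1.7 and 1.92 FPKM in the shDRP1 libraries. The groups did not overlap for either gene, as for 43.5% of all genes tested, and every shPGAM5 library lay more than 2-fold above every shDRP1 library. Mean levels were 10.9 ± 1.0 against 3.86 ± 0.22 FPKM for Dmwd, a fold of 2.83, and 6.50 ± 0.42 against 1.87 ± 0.15 FPKM for Dmpk, a fold of 3.48 (SD, n = 3 libraries each). The values rest on 1469 reads in shPGAM5 and 553 in shDRP1 libraries for Dmwd, and on 1476 and 451 for Dmpk. These values chose the window and are given as a description, without a test.

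The pair was chosen for its difference, so its rank among all genes follows from that choice and is given as a description. On the log2(FPKM + 1) scale the differences were 1.29 for Dmwd and 1.39 for Dmpk. These were ranks 15 and 11 from the top among the 10634 genes tested, and ranks 22 and 16 by absolute size. In level per length, Dmwd ranked 9 of the 39 window genes in the shPGAM5 libraries and 12 in the shDRP1 libraries, and Dmpk 12 and 16. The ratio of Dmwd to Dmpk was 1.67, 1.55 and 1.83 in the shPGAM5 libraries and 1.84, 2.24 and 2.14 in the shDRP1 libraries, so Dmwd was the higher of the 2 in every library. Neither gene shared exonic bases with another annotated gene, and neither had a near-identical transcript of another gene (97% identity or more over at least 100 bases).

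**Figure D1:**
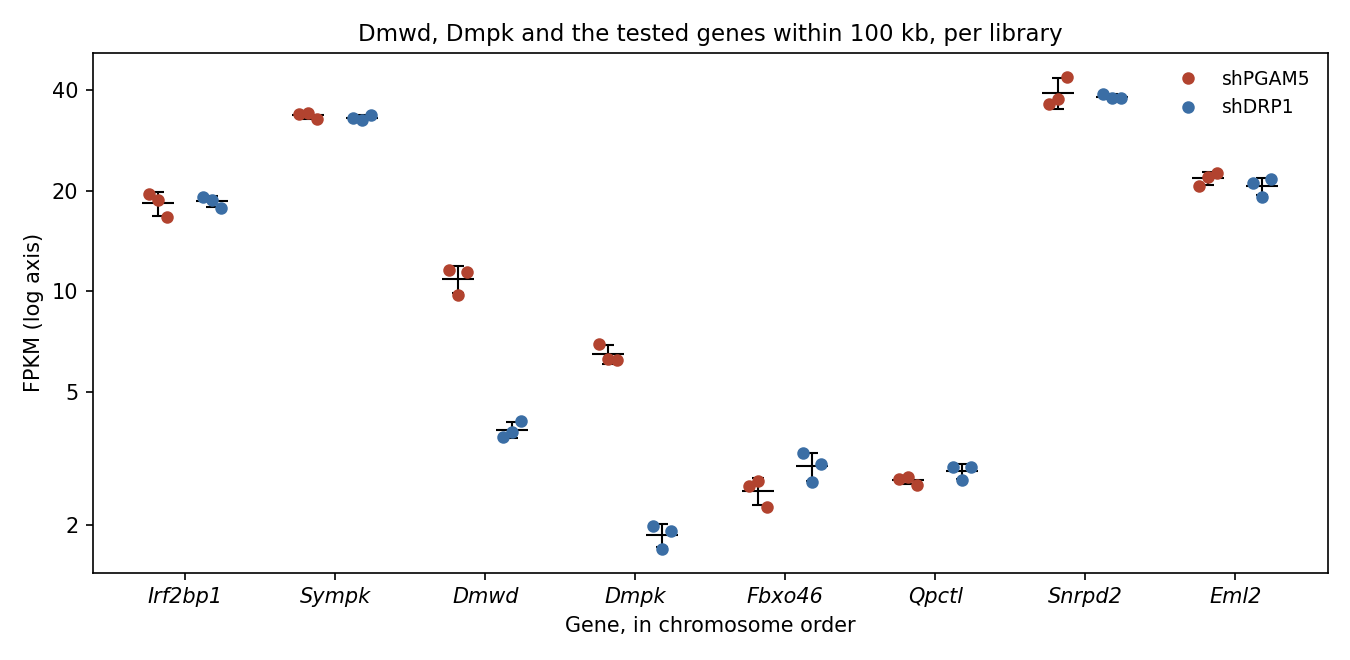
FPKM on a log axis in each library (points; red shPGAM5, blue shDRP1) with the mean and SD (black lines, n = 3 per group) for Dmwd, Dmpk and the 6 other tested genes within 100 kb, in chromosome order. The groups lie apart at Dmwd (9.73 to 11.6 against 3.67 to 4.10 FPKM) and Dmpk (6.23 to 6.98 against 1.7 to 1.99) and overlap at the other 6 genes. Over all genes tested, the groups did not overlap for 43.5%.

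The genes immediately beside the pair had few or no reads. Rsph6a, a radial spoke protein gene of sperm flagella, ends 1779 bases before Dmwd and had no read in any library, where 3 reads would have been up to 0.0746 FPKM. Six5 starts 772 bases after Dmpk and had 0.075, 0.163 and 0.254 FPKM in the shPGAM5 libraries, against 0.124, 0.113 and 0.045 FPKM in the shDRP1 libraries. The Six5 groups overlapped, on 26 reads in shPGAM5 and 15 in shDRP1 libraries, and the gene lay below the filter of a mean of 1 FPKM. Without that filter its difference was 0.09 (SE 0.063, limma adjusted p = 0.53). Gm4969, the next gene, had 0 reads in all 6. With so few reads only a large change at Six5 could have been detected.

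Over 100 kb on either side, no tested gene besides the pair differed between the knockdowns by an amount near that of the pair. Apart from the pair, 13 window genes lay within 100 kb and 6 of them passed the filter. None of the 6 passed limma (adjusted p of at least 0.15, 0 of 6 at an unadjusted p under 0.05, and 0 of 6 by voom on recovered reads), and their differences ran from -0.18 to 0.08. Over all tested genes 25.4% were called, and with so few genes nothing is read from the count of 0. The 95% intervals of the 6 together covered -0.37 to 0.20. All lie below the differences of the pair, and the intervals of all 6 contained 0.

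Below Dmwd, the nearest expressed gene was Sympk, 21.6 kb away, which encodes symplekin, a scaffold of the machinery that cleaves and polyadenylates mRNA. Sympk had 33.9, 34.1 and 32.7 FPKM in the shPGAM5 libraries, against 32.9, 32.6 and 33.6 FPKM in the shDRP1 libraries, with the groups overlapping. Its difference of 0.02 had an interval of -0.05 to 0.09, on 18509 and 19428 reads (limma adjusted p = 0.66). Irf2bp1, a corepressor gene 69.5 kb away, had 19.6, 18.7 and 16.7 FPKM in the shPGAM5 libraries, against 19.2, 18.7 and 17.8 FPKM in the shDRP1 libraries. These groups overlapped too, with a difference of -0.02 and an interval of -0.16 to 0.12.

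Above Dmpk, the nearest expressed gene was Fbxo46, 26.0 kb away, an F-box protein gene of ubiquitin ligases. Fbxo46 had 2.63, 2.72 and 2.27 FPKM in the shPGAM5 libraries, against 3.28, 2.70 and 3.04 FPKM in the shDRP1 libraries. One shDRP1 library lay inside the shPGAM5 range and the mean was lower in shPGAM5, the opposite side from the pair, with a difference of -0.18 that did not pass (interval -0.37 to 0.01, limma adjusted p = 0.15). Qpctl, whose Golgi enzyme modifies the surface protein CD47, had 2.76, 2.79 and 2.64 FPKM in the shPGAM5 libraries, against 2.98, 2.73 and 2.98 FPKM in the shDRP1 libraries, and overlapped (interval -0.20 to 0.07). Fbxo46 and Qpctl run towards each other and share 9.5% and 10.9% of their exonic bases. Whether reads were counted by strand is not stated, so those in the shared bases cannot be told apart. Snrpd2, a core protein gene of the spliceosome, had 36.2, 37.6 and 43.8 FPKM in the shPGAM5 libraries, against 38.9, 37.8 and 37.8 FPKM in the shDRP1 libraries. The third shPGAM5 library was the highest and the other two lay below the shDRP1 range (interval -0.12 to 0.19), and a pseudogene, Gm10120, matched 25.1% of its transcript bases. Eml2, a microtubule-binding protein gene 82.6 kb away, had 20.7, 22 and 22.6 FPKM in the shPGAM5 libraries, against 21, 19.2 and 21.6 FPKM in the shDRP1 libraries, with overlap (interval -0.05 to 0.20).

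**Figure D2:**
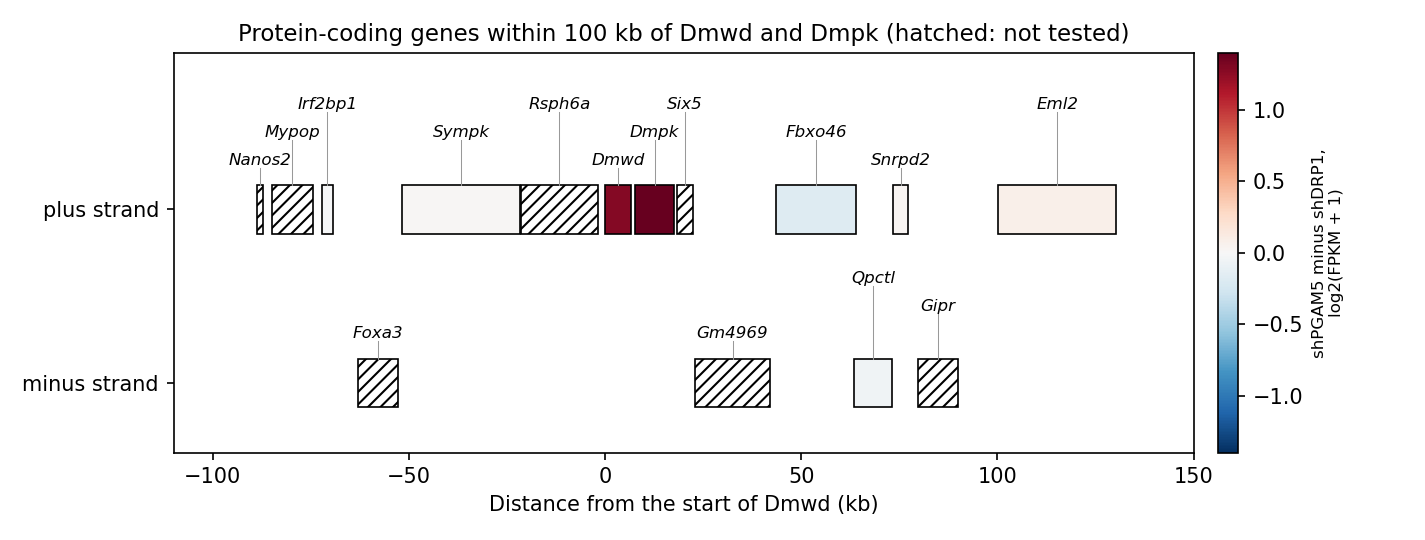
Protein-coding genes within 100 kb of Dmwd and Dmpk, drawn to scale by distance from the start of Dmwd (kb), plus strand above and minus strand below, coloured by the difference shPGAM5 minus shDRP1 in log2(FPKM + 1), with genes that did not pass the expression filter hatched. The dark red boxes are Dmwd (1.29) and Dmpk (1.39), and the 6 other tested genes are pale, from -0.18 to 0.08.

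One gene of low level inside this stretch also stood apart between the groups, and it was singled out after its values were seen. Gipr, the receptor gene for the gut hormone GIP, lies 62.2 kb above Dmpk. It had 0.259, 0.299 and 0.220 FPKM in the shPGAM5 libraries, against 0.071, 0.065 and 0 FPKM in the shDRP1 libraries. All 3 shPGAM5 libraries were higher, on 47 reads against 8, a 5.70-fold ratio of means. Gipr did not pass the filter of the comparison. In the fit without that filter its difference was 0.27 (SE 0.04, limma adjusted p = 0.014), where 2181 of 21552 genes were called. That p-value comes from the values that singled Gipr out, so it is no independent result. The ratio rests on 4, 4 and 0 reads in the shDRP1 libraries, where 3 reads would be up to 0.0535 FPKM. Fbxo46, Qpctl and Snrpd2, which passed the filter and were not called, lie between Gipr and Dmpk.

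In chromosome order, the nearest tested genes on either side of the pair, Sympk and Fbxo46, were not called. Over the whole window, 18 of the 39 genes passed the filter, 5 of the 18 were called higher (27.8%) and 0 were called lower by limma, beside 25.4% of all tested genes called, 13.8% higher and 11.7% lower. Nothing is read from the count of 5, since the pair in it chose the window and Klc3 passed the filter only through the group where it was higher. At an unadjusted p under 0.05, 1 window gene was lower (Ccdc61), and voom on recovered reads called 6 higher and 0 lower. Without the pair, 3 of 16 genes were called (18.8%), all higher, and the median difference was 0.040, beside 0.009 over all genes tested. The groups did not overlap for 7 of the 18 (38.9%) or, without the pair, 5 of the 16 (31.2%), beside 43.5% of all genes tested. Without the third shPGAM5 library, which stood apart, the count was 5 higher and 1 lower, and the differences were 1.26 for Dmwd and 1.41 for Dmpk.

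**Figure D3:**
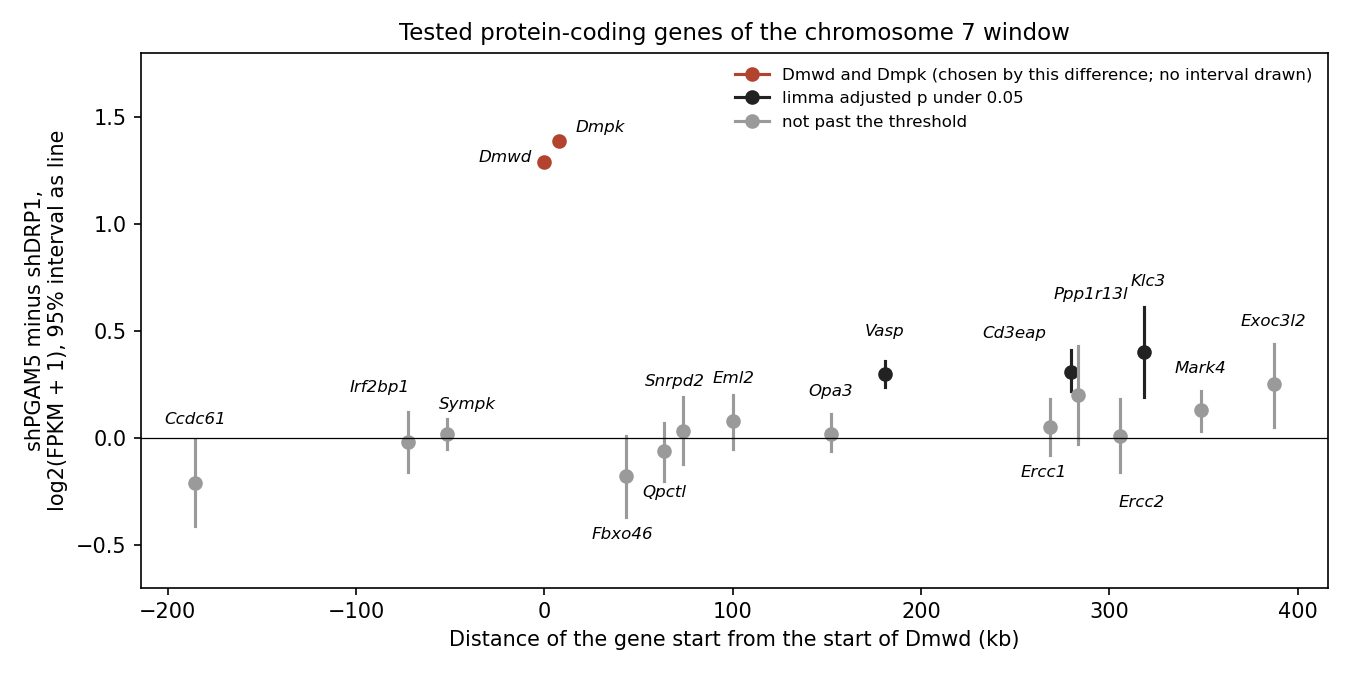
Difference shPGAM5 minus shDRP1 in log2(FPKM + 1) for the 18 tested genes of the window against the distance of each gene start from the start of Dmwd (kb), with 95% intervals from limma for all but the pair, which is drawn in red without an interval. Only Dmwd (1.29) and Dmpk (1.39) lie above 1, and the other 16 genes lie between -0.21 and 0.40 on this scale.

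The called genes apart from the pair lay more than 150 kb above Dmpk and differed by less. Vasp, whose protein lengthens actin filaments, was by level the first gene of the window. It had 312, 315 and 319 FPKM in the shPGAM5 libraries, against 254, 254 and 259 FPKM in the shDRP1 libraries. The groups lay apart with little spread, 23.4% higher in shPGAM5 (difference 0.30, SE 0.025, limma adjusted p = 0.00024), on 43255 and 37308 reads. Vasp lies 163 kb from Dmpk, and Opa3, which lies between it and the pair, did not pass. Opa3, a gene for a mitochondrial protein, had 16.6, 16.1 and 16.1 FPKM in the shPGAM5 libraries, against 15.9, 15.7 and 16.4 FPKM in the shDRP1 libraries (difference 0.02, interval -0.06 to 0.11).

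Cd3eap, which encodes a subunit of RNA polymerase I, had 14, 13.9 and 14.5 FPKM in the shPGAM5 libraries, against 11.1, 11.7 and 10.8 FPKM in the shDRP1 libraries. The groups did not overlap (difference 0.31, SE 0.042, limma adjusted p = 0.002). Its tail-to-tail neighbour Ercc1, a nuclease subunit gene of nucleotide excision repair, shares 3.4% of its exonic bases with Cd3eap and was not called. It had 7, 6.12 and 6.93 FPKM in the shPGAM5 libraries against 6.44, 6.29 and 6.55 in the shDRP1 libraries (interval -0.08 to 0.18). Ercc2, the helicase gene XPD of the repair and transcription factor TFIIH, did not pass either, with 6.22, 7.26 and 6.13 FPKM in the shPGAM5 libraries against 6.88, 6.02 and 6.47 in the shDRP1 libraries (interval -0.16 to 0.18). Both repair genes had overlapping groups, and Ercc2 shares 42.7% of its exonic bases with other genes, among them Klc3.

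Klc3, a kinesin light chain gene, reached the expression filter only through the shPGAM5 libraries, with means of 1.33 FPKM there and 0.771 FPKM in the shDRP1 libraries, so its call is no independent result. It had 1.25, 1.30 and 1.44 FPKM in the shPGAM5 libraries, against 0.914, 0.641 and 0.758 FPKM in the shDRP1 libraries. The groups did not overlap, on 185 and 113 reads (difference 0.40, SE 0.089, limma adjusted p = 0.017), and the difference was 0.73 with a pseudocount of 0.1 and 0.79 with voom. The call was lost without shDRP1 library 2 (adjusted p = 0.057) or 3 (0.054), within 0.008 to 0.057 over 14 alternatives, and 28.1% of the exonic bases of Klc3 are shared with Ercc2 on the other strand, where reads cannot be told apart.

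**Figure D4:**
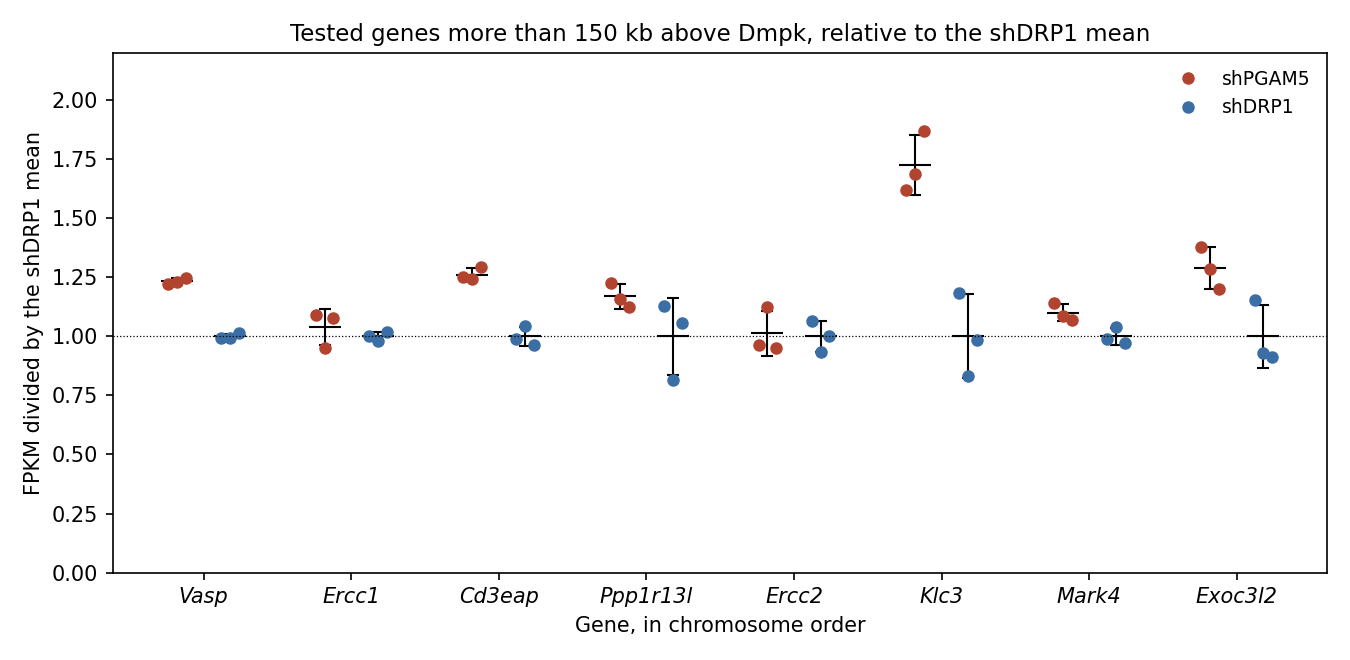
FPKM in each library divided by the shDRP1 mean of the gene (points; red shPGAM5, blue shDRP1; black lines mean and SD, n = 3 per group) for the 8 tested genes more than 150 kb above Dmpk. The groups lie apart at Vasp, Cd3eap, Klc3, Mark4 and Exoc3l2, and overlap at Ercc1, Ppp1r13l and Ercc2. Over all genes tested, the groups did not overlap for 43.5%.

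Farther up, Mark4 and Exoc3l2 had groups that lay apart without passing limma. Mark4, a kinase gene that acts on microtubules, had 14.9, 14.2 and 14 FPKM in the shPGAM5 libraries, against 12.9, 13.6 and 12.7 FPKM in the shDRP1 libraries (difference 0.13, limma adjusted p = 0.062). Exoc3l2, an exocyst-related gene and the last of the window, had 2.40, 2.24 and 2.09 FPKM in the shPGAM5 libraries, against 2.01, 1.62 and 1.59 FPKM in the shDRP1 libraries (difference 0.25, limma adjusted p = 0.067). It passed without shDRP1 library 1 (difference 0.32, adjusted p = 0.041), without the trend (0.048) and with voom (difference 0.38, adjusted p = 0.039). In the other 11 of 14 alternatives Exoc3l2 was not called, with adjusted p up to 0.19. Ppp1r13l, the gene of the p53 inhibitor iASPP, had 5.98, 5.64 and 5.47 FPKM in the shPGAM5 libraries, against 5.49, 3.97 and 5.15 FPKM in the shDRP1 libraries, and did not pass (limma adjusted p = 0.19).

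At the lower end, Ccdc61, a centrosome protein gene 166 kb below Dmwd, was the first tested gene of the window. It had 2.61, 2.55 and 3.31 FPKM in the shPGAM5 libraries, against 3.56, 3.26 and 3.40 FPKM in the shDRP1 libraries. The third shPGAM5 library lay inside the shDRP1 range and the difference of -0.21 did not pass (interval -0.41 to -0.01, limma adjusted p = 0.12). Without that library Ccdc61 was called lower (difference -0.30, adjusted p = 0.015).

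The other 21 genes of the window did not pass the filter, the highest of them Mypop, a Myb-related factor gene, at a mean of 0.903 FPKM. Of the 21, 10 had 0 reads in all 6 libraries. Besides Rsph6a and Gm4969, these were the 6 Psg genes, which encode pregnancy-specific glycoproteins of the placenta, Pglyrp1, a peptidoglycan recognition protein gene of neutrophils, and the phosphatase gene Ppm1n. Among the 11 with reads, Ckm, the muscle creatine kinase gene, had 0.058, 0.189 and 0.094 FPKM in the shPGAM5 libraries and 0.064, 0.078 and 0.110 FPKM in the shDRP1 libraries. The Ckm groups overlapped. Rtn2, a reticulon gene, was apart between the groups at 0.214 to 0.250 against 0.108 to 0.169 FPKM, on 55 and 37 reads, and was not called without the filter (limma adjusted p = 0.10). Besides Gipr, described above, the others were Nova2, a neuronal splicing factor gene, Fosb, a subunit gene of AP-1, Foxa3, Gpr4, Mill2, Nanos2 and Six5, all with overlapping groups, as was Mypop.

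At the lower edge of the window, the genes just inside and just outside had no reads and could not be compared. Psg23, the first gene inside, and Psg27, the last outside below it, both had 0 reads in all 6 libraries. Exoc3l2, the last gene inside, had a difference of 0.25, and Bloc1s3, the first outside above it, of -0.01 (7.79 against 7.89 FPKM). In a flank of the same width of 900 kb below the window, none of 13 protein-coding genes passed the filter. In the flank above, 16 of 36 passed it, 3 were called higher (Trappc6a, Ppp1r37 and Pvr) and 0 lower (0 at an unadjusted p under 0.05 and 0 by voom), a share of 18.8% beside 25.4% of all tested genes, 13.8% higher and 11.7% lower. The groups did not overlap for 7 of the 16 (43.8%), beside 43.5%. Their differences ran from -0.11 to 0.31 and none reached those of the pair.

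Genes elsewhere in the genome that are related to the pair are given beside the 25.4% of all tested genes that were called, 13.8% higher and 11.7% lower. Of 10 AGC kinases related to Dmpk 8 were tested, 1 was called higher, 2 were called lower and 5 did not pass, with a median difference of -0.01 beside 0.009 over all genes. Stk38l, a kinase gene of the NDR group, was higher, with 12.3, 11.7 and 10.6 FPKM in the shPGAM5 libraries against 6.68, 6.02 and 6.72 in the shDRP1 libraries (limma adjusted p = 0.0003). Cdc42bpb was 1 of the 2 lower ones, with 8.31, 8.81 and 8.06 FPKM in the shPGAM5 libraries against 12, 10.3 and 11.2 in the shDRP1 libraries (limma adjusted p = 0.0042). Groups lay apart at both of these genes, as for 43.5% of all genes tested. Of 6 relatives of Dmwd and their partners 5 were tested and 0 passed by limma (0 at an unadjusted p under 0.05 and 0 by voom), with a median of -0.03. Among them were Wdr20 (5.73 against 6.32 FPKM), Usp12 (7.68 against 6.91) and Usp46 (1.42 against 1.65). Groups lay apart at Wdr20, Wdr48 and Usp46 too, and overlapped at Usp1 and Usp12. Of 5 RNA-binding protein genes tied to myotonic dystrophy 4 were tested, 0 were called higher (0 at an unadjusted p under 0.05 and 0 by voom), and 2, beside 11.7% of all genes, were called lower by limma. These were Mbnl2 (14 against 21.1 FPKM) and Celf2 (3.54 against 4.29), while Mbnl1 and Celf1 did not pass. The median of the list was -0.08.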

How the data were processed

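The deposited files give 1 FPKM value per gene and library. Per the submitters' processing notes, the authors used HISAT2 2.0.5 and featureCounts 1.5.0-p3 with the build mm10. The annotation release, the FPKM formula and the strand setting were not stated. Symbols, positions and exonic lengths came from GENCODE M21 (54409 identifiers matched, 123 not). FPKM times exonic length and 1 depth per library gave whole reads, with a tolerance of 0.02, in 96.1% of values above 0, and from these the reads and depths were taken. As FPKM is relative to the library total, abundant transcripts depress the rest.

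The 10634 genes averaging 1 FPKM or more were fitted with limma 3.58.1 in R 4.3.3 on log2(FPKM + 1), with a mean-variance trend, two-sided, and Benjamini-Hochberg adjustment over all of them at 0.05. The steps were tested on simulated data. Near-identical transcripts were searched with blastn 2.17.0. The 3-read limit covers counting error only. Alternatives covered pseudocount, filter, trend, scaling, voom on recovered reads, replicate block and each library left out. Members and lists were chosen with earlier results of these data known. Values per library are given for the pair, its nearest tested neighbours, called genes, the first and last tested gene and listed genes by role. 1 kinase of the lists is not reported here.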

Additional observations from a re-analysis of the deposited data

Results flagged for a closer look

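Non-coding genes of the window did not enter the comparisons, and 3 of them had more than 3 reads in every library, the limit taken for a count of 0. 1700058P15Rik, annotated antisense to Vasp, had a mean of 3.82 FPKM over the 6 libraries, with 5.45, 5.49 and 3.17 FPKM in the shPGAM5 libraries and 3.16, 3.42 and 2.21 FPKM in the shDRP1 libraries. It lies within the span of Vasp and shares no exonic bases with it. As the strand setting was not stated, its reads cannot be told apart from unspliced Vasp RNA. The groups of 1700058P15Rik overlapped, with shPGAM5 library 3 below shDRP1 library 2 (difference 0.52, limma adjusted p = 0.091, n = 3 libraries each). Mypopos, antisense to Mypop, had a mean of 0.826 FPKM, and Gm10676, on the other strand from Mypop, 0.65 FPKM, both with overlapping groups. Mypop shares 44.4% of its exonic bases with these genes.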

How the results depend on the processing

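Dmwd ran from 1.25 to 1.48 under 15 alternatives, and Dmpk from 1.34 to 1.79 under the 14 that tested it. The 2 genes chose the window, and every shPGAM5 library lay above every shDRP1 library at each. Their kept direction is therefore no independent result. Both moved by more than the spread between libraries with a pseudocount of 0.1 (1.48 for Dmwd and 1.75 for Dmpk) and with voom (1.48 and 1.79), and Dmpk with a pseudocount of 0.5 (1.56). A smaller pseudocount shrinks low values less by construction. With a mean FPKM of at least 5, Dmpk left the test, 12 window genes remained tested, 3 were called higher and the run of called genes at the pair was 1 gene long. Elsewhere 4 to 6 window genes were higher, and the run was 2, a length that rests on the pair that chose the window. The count lower was 0 to 1 when each library was left out in turn, the 1 being Ccdc61 without the third shPGAM5 library. The median window difference of 0.062 was 0.047 with no filter (29 genes), 0.049 with quantile normalization and 0.049 when centred on the library median. It ranged from 0.031 to 0.094 with each library left out. Among single genes that did not pass, Sympk reversed to -0.01 under quantile normalization. Irf2bp1 reversed to 0.04 and Snrpd2 to -0.05 without the third shPGAM5 library, Irf2bp1 to 0.00 without shDRP1 library 1, and Ercc2 to -0.05 without the second shPGAM5 library and -0.03 without shDRP1 library 2. With each library left out in turn, Irf2bp1 ranged from -0.07 to 0.04, Snrpd2 from -0.05 to 0.09 and Ercc2 from -0.05 to 0.05. The cause was not tested. With the replicate block the window count stayed at 5 higher and 0 lower, while calls over all genes were 2133 in place of 2704. Same-numbered libraries had deviations correlated at 0.021, 0.031 and 0.00, so the numbers were not taken as pairs. Over all genes, 1798 to 2738 were called with each library left out, the lowest without shDRP1 library 2. Low counts limit Six5, Gipr, Rtn2 and the other genes below the filter.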
